A study of Mus musculus with 6 samples.

Results

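NRF2 and redox defence genes were followed here across Cbfb knockout and control cultures of mouse group 2 innate lymphoid cells (ILC2s), which are lymphocytes without antigen receptors that make type 2 cytokines in response to IL-33. The group holds 10 genes taken by symbol, namely Nfe2l2, Keap1, Sqstm1, Hmox1, Nqo1, Gclm, Gclc, Txnrd1, Srxn1 and Gsr, and each was found through its Entrez number, giving 10 rows of the 25206 on the array. The knockout group (3 arrays) carried a lentiviral CRISPR construct with a guide against Cbfb, and the control group (3 arrays) the same construct with a non-target guide. Both groups were ILC2 lines of strain C57BL/6J grown with 10 ng/ml of both IL-33 and IL-2, and both were sorted for GFP on day 6 after transduction. GFP marks cells that took up the construct and not cells in which the gene was cut, and the number of clones or animals behind a line is not given in the sources used here. The question is how stimulated ILC2s fare in gene expression without CBFβ, the non-DNA-binding partner of the RUNX transcription factors.

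NRF2, the product of Nfe2l2, is a transcription factor that joins a small MAF protein and binds antioxidant response elements in front of genes for glutathione synthesis, thioredoxin recycling, quinone reduction and haem breakdown. KEAP1 holds NRF2 in the cytoplasm and brings it to a ubiquitin ligase, and oxidants or electrophiles that modify KEAP1 let NRF2 accumulate, largely without a change in its transcript. The autophagy receptor p62, the product of Sqstm1, competes with NRF2 for KEAP1 and is itself an NRF2 target, while BACH1 occupies the same elements as a repressor and is displaced by haem. Several of these genes, Hmox1 and Sqstm1 among them, also answer other stress and inflammatory factors such as AP-1 and NF-κB.

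Values are log2 expression values as deposited, a difference is knockout minus control on that scale, and a gene is said to have risen or fallen where its limma p, adjusted by Benjamini-Hochberg over all 25206 rows, was under 0.05. Array medians lay between 3.57 and 3.63, while arrays correlated across rows at 0.9946 to 0.996 inside a group and at 0.988 to 0.9908 across groups. Whether replicate arrays stem from independent cultures is not given in the sources used here, so the p-values describe the scatter of these arrays alone. Cbfb itself read 7.88, 7.69 and 7.91 in the knockout arrays, against 8.53, 8.73 and 8.70 in the control arrays, a fall of its transcript that measures neither the edit nor the protein. Of 13 measured ILC2 markers 1 rose, 3 fell and 9 did not pass. That is 30.8% called, beside 9.75% of all rows. Among rows above the median level, where 10 of the 13 lie, 18.1% were called. The lineage factor gene Gata3 averaged 10.68 ± 0.026 in knockout and 10.58 ± 0.095 in control cells, and the receptor gene Klrg1 averaged 11.36 ± 0.010 and 11.37 ± 0.035 (SD, n = 3 each). The costimulatory receptor gene Icos read 9.43 in knockout and 10.21 in control cells (limma adjusted p = 0.00121), the IL-7 receptor gene Il7r read 8.20 and 8.76 (adjusted p = 0.00966), and the cytokine gene Il5 read 11.10 and 11.44 (adjusted p = 0.0349, missed in all 6 fits with 1 array left out). Rora, a nuclear receptor gene of ILC2 development, rose to 5.53 in knockout cells, against 3.32 in control cells (adjusted p = 0.000562). The surface marker gene Thy1 read 3.41 ± 0.085 in knockout and 3.41 ± 0.12 in control cells, under the median of all values of 3.6. Also under that median were Ptgdr2 (2.74 and 2.75 in knockout and control), Il17rb (2.50 and 2.53) and the control mean of Rora. Il1rl1 and Areg had no named row.

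Among the 10 genes, Gclm and Nqo1 rose and Sqstm1, Hmox1 and Srxn1 fell in the knockout, while Nfe2l2, Keap1, Gclc, Txnrd1 and Gsr did not pass the test. The 2 rises compare with 5.51% of all rows called higher and the 3 falls with 4.24% called lower, or 9.75% called in either direction. Calls were more frequent among rows above the median level, where all 10 genes lie, at 18.1% of 12603 rows. Knockout and control arrays were fully separate for 9 of the 10 genes, against 27.5% of all rows, low ones included. That share was not counted for rows above the median level alone. The median difference of the 10 genes was -0.10, with 5 of the 10 differences above 0, and that of all rows was -0.0067.

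**Figure D1:**
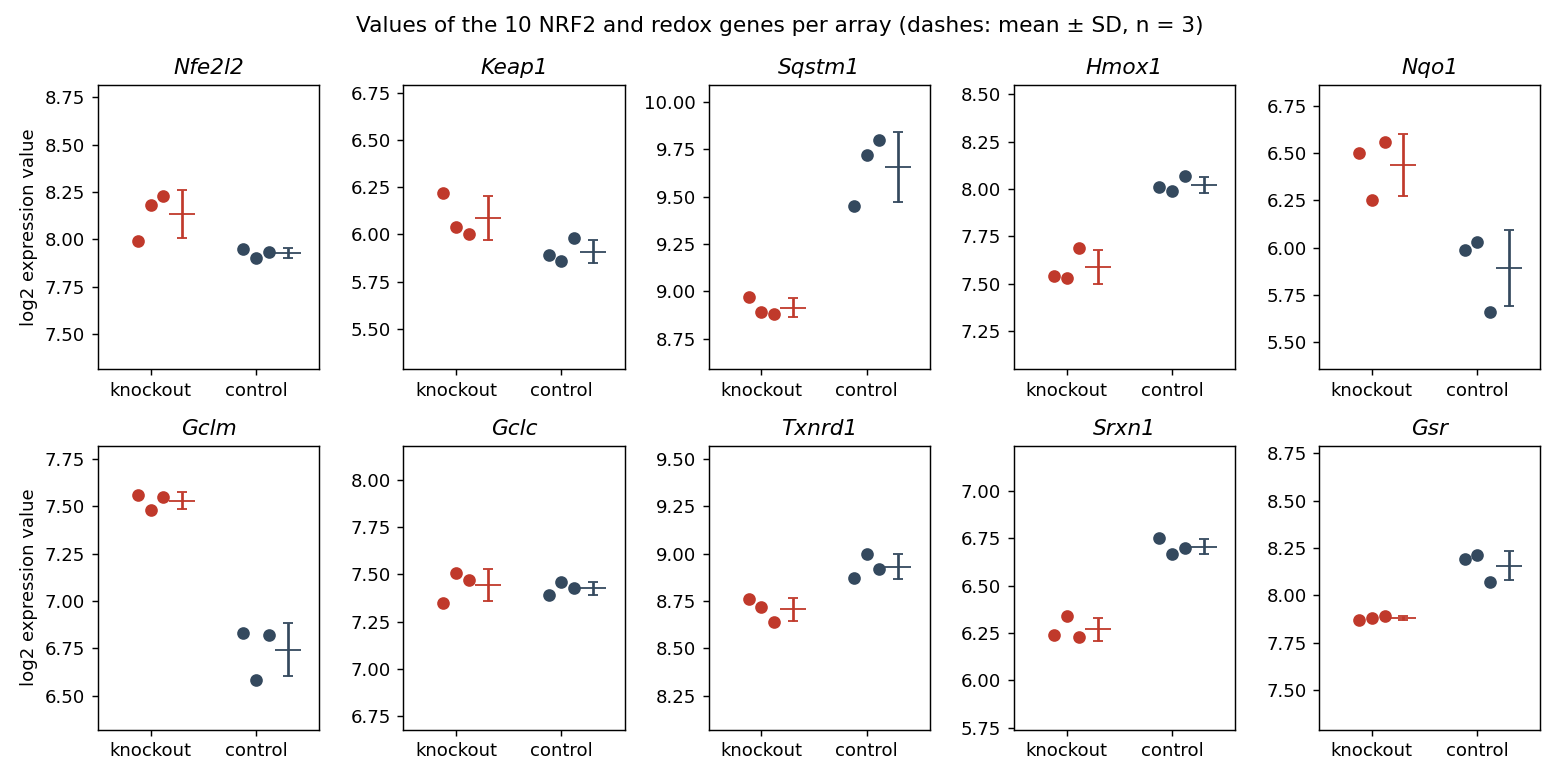
Each panel plots 1 gene, with its log2 expression value in the 3 knockout arrays on the left and the 3 control arrays on the right; all panels span 1.5 log2 units, and dashes with bars give the mean and SD. The groups are separate in every panel but that of Gclc, with knockout points higher for Gclm, Nqo1, Nfe2l2 and Keap1 and lower for Sqstm1, Hmox1, Srxn1, Txnrd1 and Gsr.

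Stretches just upstream of the annotated start were taken from RefSeq (GRCm38.p6), whose table held 7 of the 10 genes and not Hmox1, Gclc or Gsr. Shown are the genes with the largest rise and fall that it held, Gclm and Sqstm1, with Srxn1, which fell, and Nfe2l2 itself, because these 4 hold the motif letters searched for. Those letters, searched on both strands, were TGACNNNGC (the core of the antioxidant response element), TGANTCA (AP-1, which also lies inside an element core that reads as TGAC followed by TCA and GC) and TGTGGT or TGCGGT (RUNX), and matches are in capitals.
Gclm, chr3:122245307-122245486, plus strand: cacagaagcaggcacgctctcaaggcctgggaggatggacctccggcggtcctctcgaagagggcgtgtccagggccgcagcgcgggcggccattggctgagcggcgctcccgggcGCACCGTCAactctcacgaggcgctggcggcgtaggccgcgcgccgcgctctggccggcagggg
Srxn1, chr2:152105274-152105523, plus strand: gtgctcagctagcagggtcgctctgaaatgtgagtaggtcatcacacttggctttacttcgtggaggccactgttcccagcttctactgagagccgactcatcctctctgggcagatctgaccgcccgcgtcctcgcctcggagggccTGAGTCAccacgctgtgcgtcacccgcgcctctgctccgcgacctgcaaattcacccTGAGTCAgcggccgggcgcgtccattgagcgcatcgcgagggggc
Sqstm1, chr11:50210821-50211070, minus strand: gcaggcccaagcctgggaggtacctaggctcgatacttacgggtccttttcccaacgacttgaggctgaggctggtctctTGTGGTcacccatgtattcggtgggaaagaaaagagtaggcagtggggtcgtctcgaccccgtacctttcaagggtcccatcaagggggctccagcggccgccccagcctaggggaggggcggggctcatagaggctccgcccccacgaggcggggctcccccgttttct
Nfe2l2, chr2:75704664-75704913, minus strand: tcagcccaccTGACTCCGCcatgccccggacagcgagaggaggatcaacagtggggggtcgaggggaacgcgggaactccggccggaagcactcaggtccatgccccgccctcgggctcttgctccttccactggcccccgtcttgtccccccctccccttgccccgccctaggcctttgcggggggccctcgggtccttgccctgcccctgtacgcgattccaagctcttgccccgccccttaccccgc

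The stretch of Gclm, 180 bases long, held 1 element core, on the opposite strand and 64 to 56 bases before the start. Of all upstream stretches of that length, taken from the far end of each 250-base window, 6.65% held one. In Srxn1 the AP-1 letters stood at 102 to 96 and at 45 to 39 bases before the start, where 6.75% of all 250-base stretches held them at least once. The match nearer the start is followed by GC, so it departs from the searched core TGACNNNGC only in having G for C after TGA. Forms of the element core with TGAG were not searched. Sqstm1 had 1 TGTGGT at 170 to 165 bases before its start, a match found in 14% of such stretches. An element core lay 240 to 232 bases before the start of Nfe2l2, as it did somewhere in 10.2% of 250-base stretches. TGCGGT, found in 5.1% of stretches, was in none of the 7, and Keap1, Nqo1 and Txnrd1 (searched at its outermost start) held none of these letters. A match is a run of letters and not a measured site, and the windows are short.

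Of the regulators, Nfe2l2, which encodes NRF2, read 7.99, 8.18 and 8.23 in the knockout arrays, against 7.95, 7.90 and 7.93 in the control arrays. Its lowest knockout value lay just above its highest control value. The difference of 0.21 (95% interval -0.0023 to 0.42) did not pass (adjusted p = 0.224, limma). Keap1, which encodes the inhibitor, read 6.22, 6.04 and 6.00 in the knockout arrays, against 5.89, 5.86 and 5.98 in the control arrays. Here too the groups lay side by side without overlap, and the difference of 0.18 (interval -0.034 to 0.39) did not pass (adjusted p = 0.309). These intervals hold a difference of 0 as well as a rise to 133% of the control signal for Nfe2l2 and to 131% for Keap1. As transcripts, neither measures how much NRF2 protein was present or bound to KEAP1.

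Sqstm1, the gene of the receptor that carries ubiquitinated cargo to autophagosomes and sequesters KEAP1, had the largest fall of the 10. It read 8.97, 8.89 and 8.88 in the knockout arrays, against 9.45, 9.72 and 9.80 in the control arrays. The knockout arrays lay close together, the control arrays spread more widely, and the groups were well apart. The mean was 8.91 ± 0.049 in knockout and 9.66 ± 0.18 in control cells (SD, n = 3 each), a difference of -0.74 (standard error 0.11, limma adjusted p = 0.00463). In linear terms the knockout kept 59.7% of the control signal (interval 50.4% to 70.8%). The call held in all 13 alternative settings tried, among them all 6 with 1 array omitted.

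Hmox1 encodes the inducible haem oxygenase, which opens haem to biliverdin, iron and carbon monoxide. It read 7.54, 7.53 and 7.69 in the knockout arrays, against 8.01, 7.99 and 8.07 in the control arrays. All knockout values were lower, and the difference of -0.44 (standard error 0.084) left 73.9% of the control signal (limma adjusted p = 0.0157). The call was lost in 4 of the 6 fits with 1 array left out, those without control replicate 2, control replicate 3, knockout replicate 1 or knockout replicate 2 (adjusted p 0.0248 to 0.0615 over the 6), with differences of -0.49 to -0.41 over all 13 alternatives. Macrophages are a strong source of Hmox1, and of 17 measured macrophage, monocyte and dendritic cell markers 0 rose in limma and 1, Itgax, fell. The counts were the same at an unadjusted p under 0.05, where 12% of all rows were higher and 10.9% lower. Their mean value ran from 3.17 to 3.22 over the knockout arrays and from 3.20 to 3.37 over the control arrays, and 5 of the 17 averaged above 3.6. Adgre1 (1.97 and 2.15 in knockout and control) and Csf1r (2.71 and 2.86), which define macrophages, read well under that value, while Cd68 (5.84 and 5.87) and C1qa (3.99 and 4.01) read above it. Fewer cells of a type and less RNA per cell cannot be told apart in such bulk samples, and the part of other cells in the result was not tested.

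Srxn1 encodes sulfiredoxin, which restores overoxidised peroxiredoxins. It read 6.24, 6.34 and 6.23 in the knockout arrays, against 6.75, 6.67 and 6.70 in the control arrays. Both groups were tight and clearly separate. The difference was -0.44 (standard error 0.080), leaving 73.9% of the control signal (interval 65.0% to 83.9%; limma adjusted p = 0.0126). It passed in all 13 alternatives, though closely without 1 array (adjusted p 0.0315 to 0.0467 over the 6 fits).

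Neither the thioredoxin nor the glutathione reductase gene passed the test. Txnrd1, which encodes the cytosolic thioredoxin reductase, read 8.76, 8.72 and 8.64 in the knockout arrays, against 8.87, 9.00 and 8.92 in the control arrays. Gsr, which encodes the enzyme that returns oxidised glutathione to its reduced form, read 7.87, 7.88 and 7.89 in the knockout arrays, against 8.19, 8.21 and 8.07 in the control arrays. In both genes every knockout array was below every control array. The difference of Txnrd1 was -0.22 (interval -0.41 to -0.033, limma adjusted p = 0.148), and that of Gsr was -0.28 (interval -0.46 to -0.092, adjusted p = 0.0726). Txnrd1 passed under a trended and robust variance prior (adjusted p = 0.0257), as did Gsr (adjusted p = 0.0116), which also passed when rows above the median level were fitted alone (adjusted p = 0.0225).

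Against these, Gclm rose more than any other member. It encodes the modifier subunit of glutamate-cysteine ligase, the rate-limiting enzyme of glutathione synthesis, and raises the enzyme's efficiency. It read 7.56, 7.48 and 7.55 in the knockout arrays, against 6.83, 6.58 and 6.82 in the control arrays. The knockout arrays agreed closely and lay far above the control arrays. The difference was 0.79 (standard error 0.095), or 1.73-fold (limma adjusted p = 0.00218), and it passed in all 13 alternatives.

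Gclc, the gene of the catalytic subunit of the same enzyme, read 7.35, 7.51 and 7.47 in the knockout arrays, against 7.39, 7.46 and 7.43 in the control arrays. It was the 1 member whose groups overlapped. Its difference was 0.017, with an interval of -0.17 to 0.21 (adjusted p = 0.942, limma). The change of Gclm exceeded that of Gclc by 0.77 on the log2 scale, with separate groups, in a comparison chosen after the values were seen. An exact permutation test of that within-array difference gave p = 0.1 (two-sided), the smallest that 3 arrays against 3 allow. Separate groups always give that p, so the test adds nothing to the separation already seen.

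Nqo1 encodes a reductase that takes quinones to hydroquinones without a radical step and is among the most used readouts of NRF2. It read 6.50, 6.25 and 6.56 in the knockout arrays, against 5.99, 6.03 and 5.66 in the control arrays. The groups were separate, but each had 1 lower array, and the spread was the widest of the 10 genes. The difference of 0.54 (standard error 0.13) amounted to 1.46-fold (limma adjusted p = 0.0358). It held in 1 of the 6 fits with 1 array left out, that without knockout replicate 2, and was lost without any of the 3 control arrays, knockout replicate 1 or knockout replicate 3 (adjusted p 0.0394 to 0.111). In all it passed in 6 of the 13 alternatives, failing among others after the columns were quantile-normalised again, and the direction was upward in all 13.

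**Figure D2:**
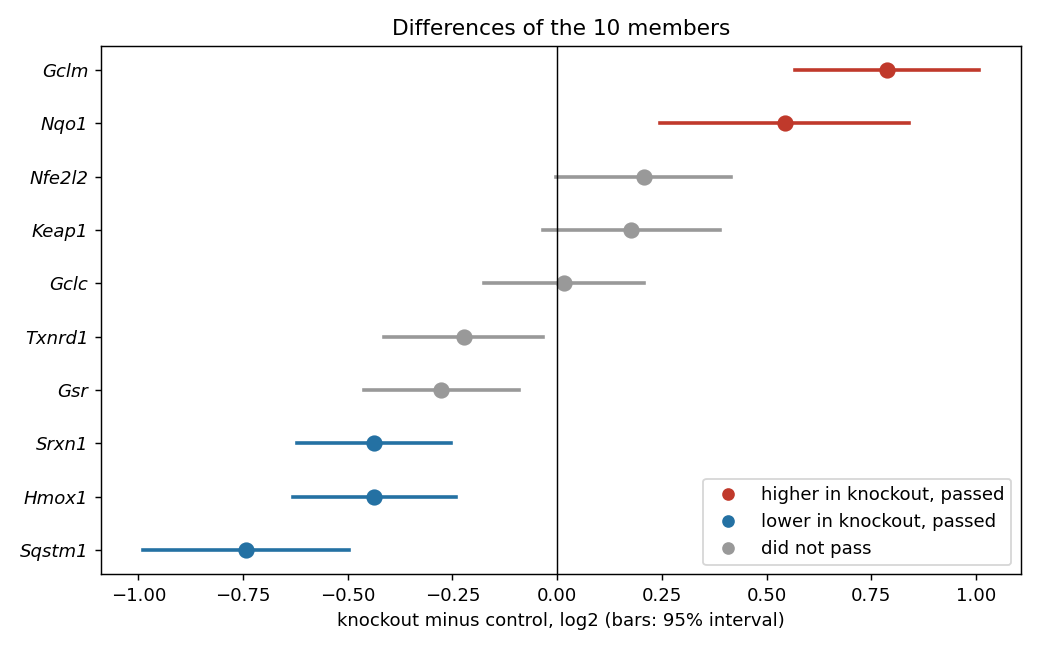
Points give knockout minus control on the log2 scale for each of the 10 genes and bars its 95% interval, sorted from the largest rise at the top; red marks rises and blue falls past the test, grey those that did not pass. Gclm (0.79) and Nqo1 (0.54) stand at the top, Sqstm1 (-0.74) at the bottom, and Nfe2l2 and Keap1 between them with intervals that reach 0.

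**Figure D3:**
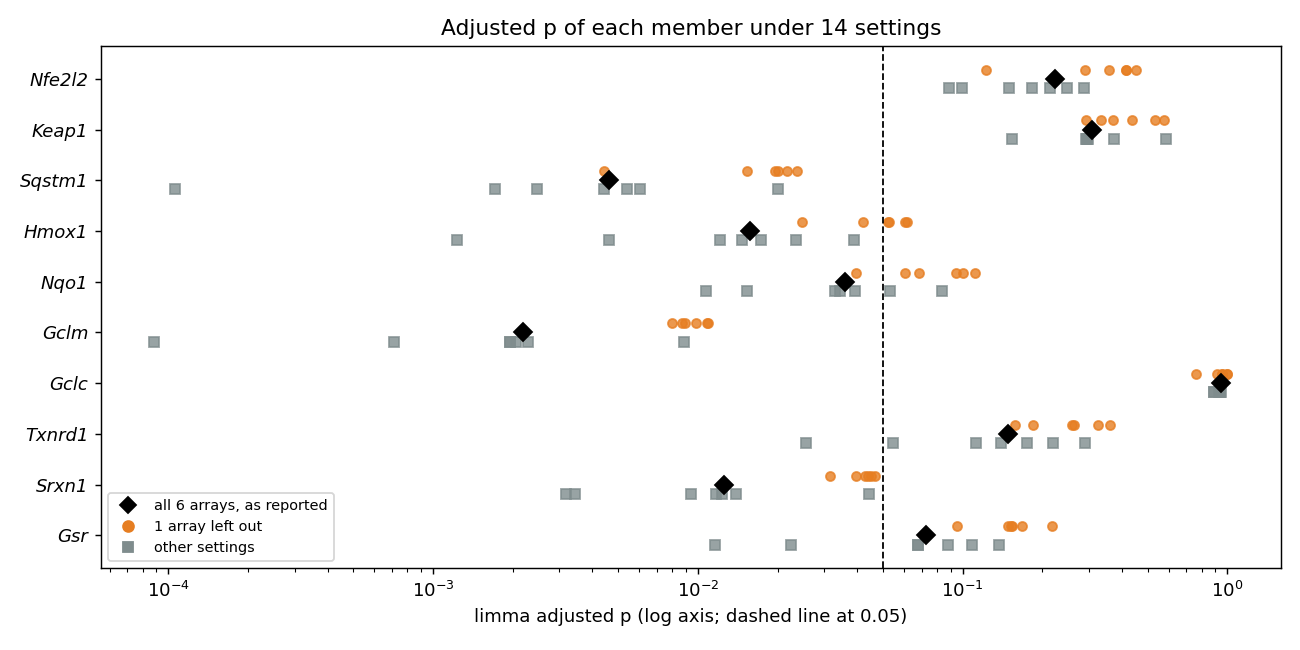
For each gene the black diamond is the limma adjusted p with all 6 arrays, orange circles are the 6 fits with 1 array left out and grey squares 7 other settings, on a log axis with a dashed line at 0.05. Sqstm1, Gclm and Srxn1 stay left of the line in every setting, Hmox1 and Nqo1 straddle it, and Nfe2l2, Keap1 and Gclc stay to its right.

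Genes around NRF2 were read from 8 lists that hold 160 genes, of which 150 had a named row. Of these 13 rose, 9 fell and 128 did not pass, so 14.7% were called, which lies between the 9.75% of all rows and the 18.1% of rows above the median level. The lists as a whole therefore stood near the background, and what follows describes single genes. The genes with most bearing on NRF2 were its DNA partners, a repressor of its elements and the cystine importer.

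In the list of NRF2 partners, relatives and turnover factors 1 of 17 measured genes rose and 2 fell (median difference -0.023). Mafk, which encodes a small MAF protein that pairs with NRF2 or BACH factors, read 6.52, 6.60 and 6.37 in the knockout arrays, against 7.58, 7.44 and 7.28 in the control arrays. All its knockout values were far below the control values (difference -0.94, limma adjusted p = 0.00164), leaving 52.2% of the control signal. Its relative Maff fell by 0.51 (adjusted p = 0.0385) but missed the threshold in 4 of the 6 fits with 1 array left out. Mafg, the third small MAF gene, differed by 0.12 (adjusted p = 0.597), with overlapping groups. Bach1, the gene of the haem-sensing repressor, read 6.11, 6.07 and 6.11 in the knockout arrays, against 5.56, 5.62 and 5.71 in the control arrays. It rose by 0.47 (adjusted p = 0.0102) and passed in all 6 fits with 1 array left out. Bach2, its lymphocyte relative, differed by -0.15 (adjusted p = 0.474) at values of 2.83 and 2.99 in knockout and control cells, where a change can be understated.

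Glutathione synthesis and use had 1 rise and 2 falls among 26 measured genes (median 0.025). Slc7a11 encodes the cystine-glutamate exchanger that supplies cysteine for glutathione and is a known target of both NRF2 and ATF4. It read 5.61, 5.34 and 5.28 in the knockout arrays, against 6.36, 6.47 and 6.58 in the control arrays. The groups lay far apart, and the difference of -1.06 (standard error 0.11, limma adjusted p = 0.00121) left 48% of the control signal. Chac1, which encodes an enzyme that degrades glutathione and also answers ATF4, fell by 0.56 (adjusted p = 0.0385) and missed the threshold in 5 of the 6 fits with 1 array left out. Gstm1, a glutathione transferase gene with close relatives on the array, rose by 0.70 (adjusted p = 0.0171). It missed in 2 of the 6. The supply gene Slc7a11 and the ligase gene Gclm thus moved in opposite directions.

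Of 20 measured thioredoxin and peroxiredoxin genes 2 rose and 1 fell (median -0.015). Txnip, which encodes an inhibitor of thioredoxin that also responds to glucose, rose to 9.44 ± 0.097 in knockout cells, against 8.77 ± 0.21 in control cells (limma adjusted p = 0.0117). Prdx2, a cytosolic peroxiredoxin gene, rose by 0.40 (adjusted p = 0.016; missed in 2 of the 6 fits with 1 array left out). Msra, which encodes a methionine sulfoxide reductase, fell by 0.45 (adjusted p = 0.0265; missed in 5). Prdx1, a peroxiredoxin gene under NRF2, read 8.75 ± 0.075 in knockout and 8.88 ± 0.026 in control cells and did not pass (adjusted p = 0.395).

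Enzymes that make or remove superoxide and peroxide had 3 rises and no fall among 16 measured (limma, median 0.048). At an unadjusted limma p under 0.05, 3 of the 16 were higher and 0 lower, beside 12% and 10.9% of all rows. Ncf4 and Cyba, which encode p40phox and p22phox of the phagocyte NADPH oxidase, rose by 0.70 (limma adjusted p = 0.00244) and 0.47 (adjusted p = 0.0103), each passing in all 6 fits with 1 array left out. Cybb and Ncf1, genes of the same oxidase, did not pass. They read 2.70 and 3.26 in knockout cells, against 2.69 and 3.49 in control cells, under the median of all values of 3.6. Ccs, which encodes the copper chaperone of superoxide dismutase, rose by 0.48 (adjusted p = 0.0121; missed in 1 of the 6). NADPH supply had 1 rise and 1 fall among 13 (median -0.017), with 1 gene higher and 5 lower at that unadjusted threshold. All 13 lie above the median level, where 20.3% of rows were higher and 17% lower. Idh1, which encodes the cytosolic NADP-dependent isocitrate dehydrogenase, read 4.97, 5.26 and 5.64 in the knockout arrays, against 3.96, 4.53 and 4.26 in the control arrays. Its difference of 1.04 (standard error 0.19, adjusted p = 0.0135) came with the widest scatter among the genes given here array by array. Mthfd2, a mitochondrial folate enzyme gene, fell by 0.39 (adjusted p = 0.0176; missed in 4 of the 6), and the pentose phosphate gene Rpia differed by -0.27 (adjusted p = 0.0793). G6pdx had no named row.

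Around Hmox1, haem and iron genes gave 2 rises and 1 fall among 20 (median 0.10). Fech and Ppox, which encode late enzymes of haem synthesis, rose by 0.55 (limma adjusted p = 0.00928) and 0.42 (adjusted p = 0.0205). Tfrc, the transferrin receptor gene, fell by 0.55 (adjusted p = 0.0143). Ppox missed the threshold in 4 of the 6 fits with 1 array left out and Tfrc in 3. The ferritin heavy chain gene Fth1, another NRF2 target, read 11.49 ± 0.029 in knockout and 11.47 ± 0.067 in control cells (interval of the difference -0.16 to 0.20). None of 7 measured erythroid markers passed in limma, 1 had an unadjusted p under 0.05, and their mean ran from 3.21 to 3.30 over the knockout arrays and from 3.21 to 3.32 over the control arrays. Quinone and xenobiotic enzymes, the list nearest to Nqo1, gave no rise and 1 fall among 18 (limma; median -0.032), with 1 gene higher and 6 lower at an unadjusted p under 0.05. At that threshold 12% of all rows were higher and 10.9% lower, and of rows above the median level, where 11 of these 18 genes lie, 20.3% were higher and 17% lower. That fall was Akr1c13, an aldo-keto reductase gene with close relatives, at -0.46 (adjusted p = 0.03; missed in 5 of the 6). Aldh3a1 differed by 0.28 (adjusted p = 0.0754) at 2.66 and 2.38 in knockout and control cells, and Osgin1, which NRF2 can induce, by -0.26 (adjusted p = 0.0978).

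Autophagy genes, the surroundings of Sqstm1, had 3 rises and 1 fall among 20 measured (median -0.008). Nbr1, the gene of a cargo receptor built like p62, rose by 0.50 (limma adjusted p = 0.014), opposite to Sqstm1, and missed in 1 of the 6 fits with 1 array left out. Calcoco1, the gene of another receptor, rose by 0.66 (adjusted p = 0.0031), and Ulk1, which encodes a kinase that starts autophagy, by 0.64 (adjusted p = 0.0239; missed in 4 of the 6). Gabarapl1, an ATG8 family gene, fell by 0.76 to 5.63 ± 0.13 in knockout cells, against 6.39 ± 0.045 in control cells (adjusted p = 0.00235).

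**Figure D4:**
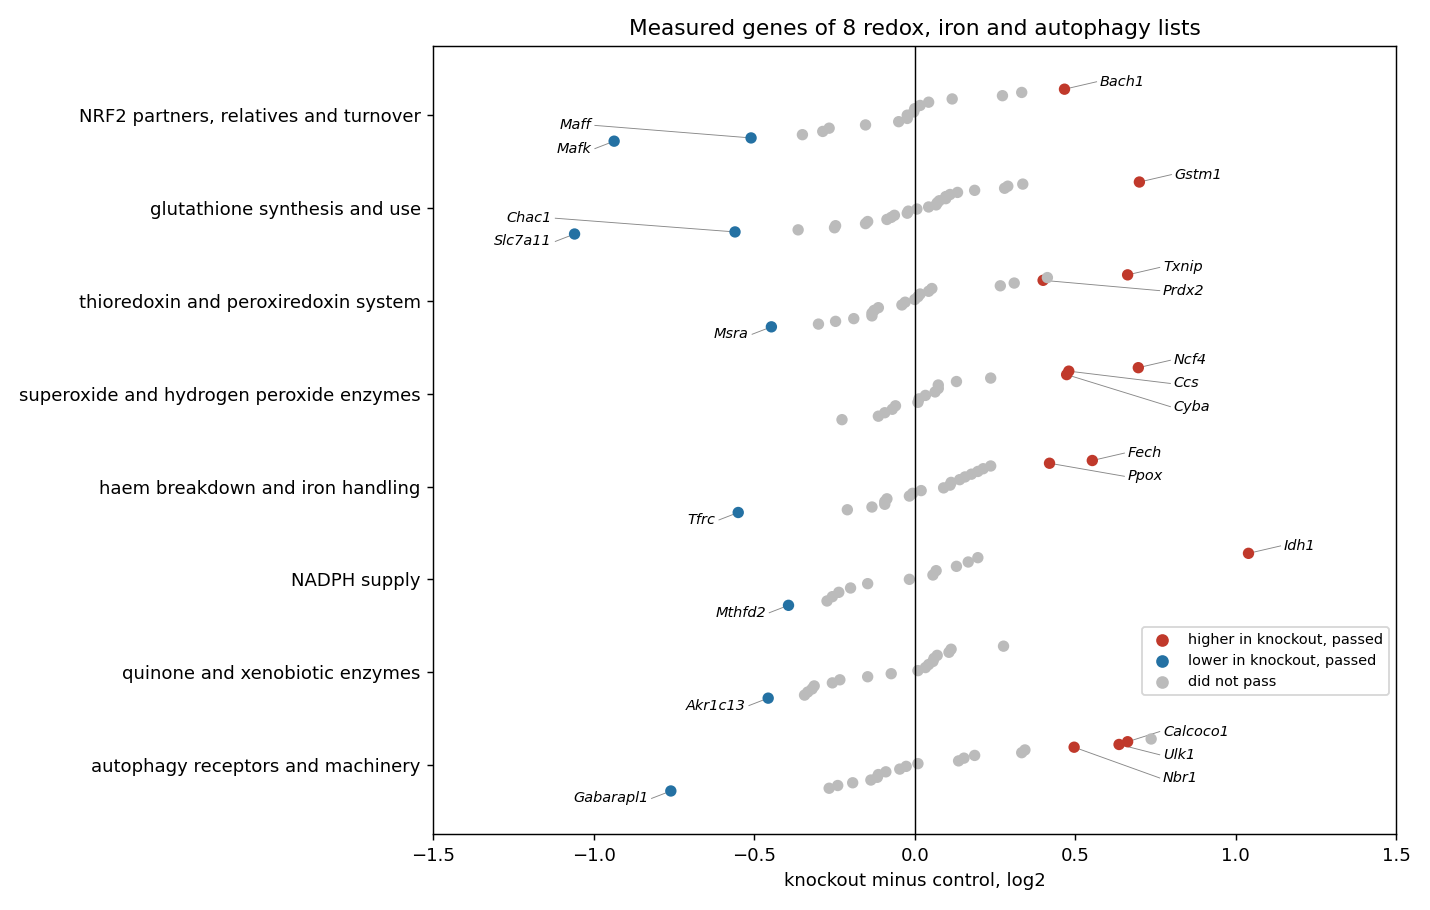
Each point is a measured gene of 1 of the 8 lists, placed by knockout minus control on the log2 scale; named red points rose and named blue points fell past the test, grey points did not pass. Most points lie near 0 in every list, and Idh1 (1.04) and Slc7a11 (-1.06) lie farthest out.

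The 3 rows whose profile over the 6 arrays was most like that of Nfe2l2 were those of Mir494, Rfx5 and Cdk19, a microRNA, a regulator of MHC class II genes and a kinase of the Mediator complex. Likeness was the root mean square difference after each row was centred on its own mean, and it was 0.0183, 0.02 and 0.0256 log2 units among 23184 rows compared. Rfx5 read 6.71, 6.92 and 7.01 in the knockout arrays, against 6.69, 6.64 and 6.65 in the control arrays. Like Nfe2l2, none of the 3 passed the test, but rows chosen for such likeness must have similar differences, so this adds nothing. With 6 arrays many rows can share such a shape. Mir494 averaged 3.27 in knockout and 3.07 in control cells, under the median of all values of 3.6.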

How the data were processed

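RNA from 6 ILC2 samples, 3 with a Cbfb guide and 3 with a non-target guide, was labelled with biotin and read on 1-colour arrays. The deposited table holds log2 values, a scale read from the values themselves (0.66 to 12.51), and RMA and limma 3.14.4 appear in the submitters' processing notes with no word on what each did. RMA evens out array distributions, so a shift shared by most genes would be hidden, and it shrinks differences at low values, which here carry no detection calls. Of 25206 rows 23185 were named through Entrez numbers, matched to RefSeq symbols (GRCm38.p6). Of all listed genes 17 had no named row.

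Values were used unfiltered. limma 3.58.1 in R 4.3.3 fitted 1 coefficient per group with moderated two-sided tests, Benjamini-Hochberg adjustment over all rows and a threshold of 0.05, and it was tested on simulated data. Precision is limited by the number of arrays.

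The members, lists, motifs and alternatives were chosen with earlier results of these data known, so lists are described by counts and medians, without a test. All members were named with every value. From each of the 8 pathway lists the genes that passed, the 3 with the smallest adjusted p and a few standard NRF2 genes were named; marker lists are given by counts and examples. Alternatives were a replicate block, each array left out, quantile normalisation again, median centring, rows above the median level, a trended and robust prior, array weights, named rows alone and other thresholds.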

Additional observations from a re-analysis of the deposited data

How the results depend on the processing

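Of 130 member differences under 13 alternatives, 114 kept their direction and their side of the threshold, 11 lost the call, 3 gained it and 2 changed sign, both of Gclc near 0 (-0.002 without control replicate 1 and -0.017 without knockout replicate 2, within a range of -0.017 to 0.063 over the fits with 1 array left out). With 1 array left out, 1 to 2 members rose and 2 to 3 fell, 8 to 13 genes of the 8 lists rose and 3 to 6 fell, and over all rows 763 to 1113 rose and 544 to 786 fell, against 1389 and 1068 with all arrays. The lowest of these row counts came without control replicate 2. With the replicate block 1 member rose and 3 fell, Nqo1 losing its call, and quantile normalisation again left 1 rise as well. Deviations of same-numbered arrays correlated at 0.007 to 0.054, so no large shift shared by replicate number was seen. Whether same-numbered arrays had a common origin is not given in the sources used here. The trended and robust prior gave 5 member falls, 17 list falls and 1626 falls over all rows. Rows above the median level alone gave 20 rises and 20 falls in the lists. At an adjusted p of 0.01, 1 member rose and 1 fell, with 569 and 397 rows. The causes of these shifts were not tested. Signal near background could not be judged without detection calls, and all 10 members averaged above the median level.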

Other observations

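The 2 ferritin chains read very differently on these arrays. Ftl1, the light chain gene, read 2.70, 2.93 and 2.54 in the knockout arrays, against 2.94, 2.80 and 2.45 in the control arrays, under the median of all values of 3.6, so its row gives little on the light chain, and the values alone do not separate it from its close relatives.

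Among 11 measured T cell markers, which share signalling parts with ILC2s, 1 rose and 1 fell. That is 18.2% called, beside 9.75% of all rows. It stood near the 18.1% of rows above the median level, where 6 of the 11 lie. Trac, which encodes the constant part of the T cell receptor alpha chain, fell by 0.61 (limma adjusted p = 0.00324), and Zap70, a proximal kinase gene, rose by 0.33 (adjusted p = 0.0367) but missed the threshold in all 6 fits with 1 array left out. Their mean value ran from 4.45 to 4.56 over the knockout arrays and from 4.50 to 4.56 over the control arrays.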
